A study of Mus musculus with 2 samples.

Results

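The 10 microRNA (miRNA) genes described here are known for expression in heart, skeletal muscle, liver, gut or pancreas, and their levels were measured in the embryonic mouse forebrain. They were chosen by name from 1973 miRNA gene rows: Mir208a, Mir208b and Mir499, which lie in introns of myosin heavy chain genes, and Mir206, Mir122, Mir192, Mir194-2, Mir216b, Mir217 and Mir375. The choice rests on where these genes are known to be expressed, not on a difference between the libraries. It was made with earlier results of these data known. The study sequenced small RNA of under 30 bases from forebrain of healthy B6NCrl embryos at embryonic day 11.5, with both sexes pooled and no treatment or mutant allele named in the labels. There is 1 group of 2 libraries and no control. Replicate 1 pooled tissue of 109 embryos and replicate 2 tissue of 88 embryos. The labels give the libraries separate tissue samples under the same donor entry.

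Levels are given as CPM, a gene's sense-strand count per 1000000 such counts over all miRNA genes. That sum was 1281201 in replicate 1 and 1297647 in replicate 2. These were part of 3955893 and 3428269 reads. Reads that fit several places in the genome made up 29.5% and 29.2% of reads and are in no gene's count. A count of 0 allows up to 3 counts at one-sided 95% confidence, which is 2.34 CPM in replicate 1 and 2.31 CPM in replicate 2. This value is called the counting limit here. The intervals given for levels are two-sided. Of 20 miRNA genes listed as neural, 19 had a row, and 18 of these were at or above the limit in both libraries. The list was led by Mir92b (17079 ± 1908 CPM, SD, n = 2) and Mir149 (14979 ± 1706 CPM). Its median was 191 CPM in replicate 1 and 143 CPM in replicate 2, so most of the 19 lay far below these leading genes. Several genes of the list are numbered copies, such as Mir9-2 and Mir9-3 or Mir128-1 and Mir128-2. Reads that fit several copies are in no gene's count, so the levels of such genes and this median may be too low. In pooled whole tissue, fewer cells of a type and less RNA per cell cannot be told apart.

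A mature miRNA is cut from a hairpin in its gene's transcript and is loaded onto an Argonaute protein. It pairs with messenger RNAs mainly through its seed, bases 2 to 8 from the 5′ end, and lowers their translation and stability. Mir208a lies in Myh6 and Mir208b in Myh7, the genes of the alpha and beta cardiac myosin heavy chains, and Mir499 lies in Myh7b. These miRNAs are made along with their host transcripts and act on the balance of fast and slow muscle genes. Mir206 is a skeletal muscle miRNA. Mir122 dominates the miRNAs of hepatocytes, Mir192 and Mir194-2 belong to gut epithelium, liver and kidney, Mir216b and Mir217 to the exocrine pancreas, and Mir375 to pancreatic islets and other endocrine cells.

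The myosin-hosted miRNAs are shown first because miR-208a-3p and miR-208b-3p are so alike that the level of each depends on telling them apart, while miR-499-5p is close to them in its seed. Sequences are from RefSeq (GRCm38.p6), 5′ to 3′, with the seed in capitals.
mmu-miR-208a-3p: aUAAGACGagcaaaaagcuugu
mmu-miR-208b-3p: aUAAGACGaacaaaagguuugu
mmu-miR-499-5p: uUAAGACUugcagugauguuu
The first pair have the same seed and differ at 3 of 22 bases: G10A, A16G and C18U, with the base of miR-208a-3p first, the position counted from 1 at the 5′ end, and the base of miR-208b-3p last. MiR-499-5p differs from miR-208a-3p at 9 of 21 aligned bases. Within the seed the only change from miR-208a-3p to miR-499-5p is G8U, and outside it the first base changes by A1U.

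The hairpins of Mir208a and Mir208b, with the mature arms in capitals, show that the genes differ more widely than their 3′ arms do.
Mir208a: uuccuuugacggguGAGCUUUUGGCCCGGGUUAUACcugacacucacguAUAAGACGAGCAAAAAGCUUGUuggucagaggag
Mir208b: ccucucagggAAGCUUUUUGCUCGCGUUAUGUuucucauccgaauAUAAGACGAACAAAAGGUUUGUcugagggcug
A read of either mature arm therefore has mismatches at the other gene. How many mismatches the authors' counting allowed is not given in the sources used here.

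For the gut, liver, muscle and pancreas genes the sequences below include the near copies that were compared, since a read that fits a copy as well is not counted. These copies (Mir215, Mir194-1 and Mir216a) are not members. Among the RefSeq sequences used here, the seed of miR-206-3p is also that of miR-6349 and miR-6382, which are not shown. These sequences are incomplete, so other miRNAs may have this seed. Other relatives of miR-206-3p were not compared base by base.
mmu-miR-206-3p: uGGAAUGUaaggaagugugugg
mmu-miR-192-5p: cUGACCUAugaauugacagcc
mmu-miR-215-5p: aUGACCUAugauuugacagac
mmu-miR-194-5p: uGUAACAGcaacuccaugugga
mmu-miR-194-2-3p: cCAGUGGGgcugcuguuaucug
mmu-miR-194-1-3p: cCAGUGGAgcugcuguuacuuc
mmu-miR-216b-5p: aAAUCUCUgcaggcaaauguga
mmu-miR-216a-5p: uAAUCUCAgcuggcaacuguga
mmu-miR-217-5p: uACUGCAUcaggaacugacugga
mmu-miR-375-5p: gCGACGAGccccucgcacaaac
MiR-192-5p and miR-215-5p have the same seed and differ at 3 bases (C1A, A12U and C20A, miR-192-5p first). MiR-216a-5p and miR-216b-5p differ at 4 bases (U1A, A8U, U11A and C17A, miR-216a-5p first), of which A8U lies in the seed. MiR-194-5p is the same in Mir194-1 and Mir194-2, whereas their 3′ arms differ at 4 bases (A8G, C19U, U20C and C22G, Mir194-1 first). The RefSeq table held 9 of the 10 members. Mir122 and miR-375-3p are named only.

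The Mir194 hairpins show how much of a read these copies share. The 22 bases of miR-194-5p, the longest stretch they have in common, are in capitals.
Mir194-2: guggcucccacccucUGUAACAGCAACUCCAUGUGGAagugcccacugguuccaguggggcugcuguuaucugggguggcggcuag
Mir194-1: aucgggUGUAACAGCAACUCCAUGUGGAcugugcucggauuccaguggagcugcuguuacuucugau
Mir194-2 was the only one of the 9 matched members that shared 20 or more bases with another RefSeq hairpin, on either strand. For the other 8 the longest shared stretch in this comparison was 10 to 14 bases. The comparison did not include Mir216c, which in the gene annotation lies within Mir216b on the opposite strand and had no row. The files count a gene's 2 arms together, so which arm was read is not known for any member.

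All 10 members had 3 or more counts in both libraries, as did 21.5% of the gene rows (424 of 1973), and 1288 rows had no count in either library. Because the members were chosen with earlier results known, these shares are no test of the members against other genes. Some genes of the same tissues with few or no counts, such as Mir133b, Mir215 and Mir802, are not members. The members' mean levels ran from 5.05 CPM (Mir206) to 248 CPM (Mir375), at ranks 372 and 181. The median of the 424 rows at the limit in both libraries was 146.7 CPM in replicate 1 and 133.7 CPM in replicate 2. Among those 424 rows, 12.3% lay below Mir206 and 57.3% below Mir375. Together the members took 0.0924% of the miRNA counts of replicate 1, with a Wilson interval from 0.0873 to 0.0978%. Their share of replicate 2 was 0.0675% (0.0632 to 0.0721%). Intervals are 95% and cover counting error only, since reads amplified by PCR without molecular identifiers are not independent molecules. No member had a count on the opposite strand in either library.

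**Figure D1:**
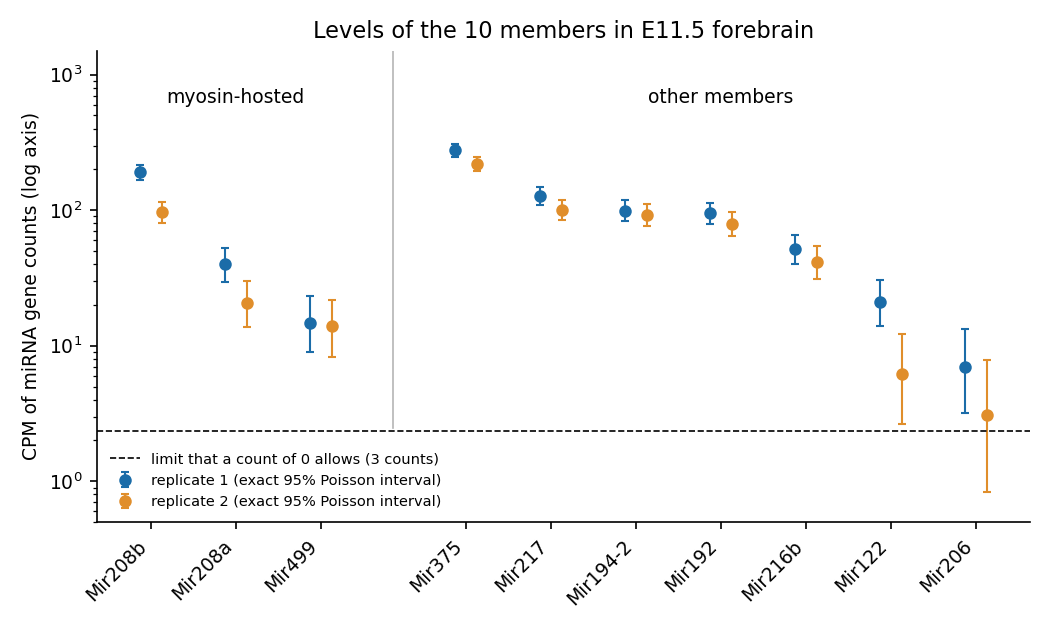
CPM of each member (log axis) in replicate 1 (blue) and replicate 2 (orange), with exact 95% Poisson intervals and the counting limit as a dashed line. All 20 values lie above the limit, and the interval of Mir206 in replicate 2 (0.840 to 7.89 CPM) reaches below it.

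**Figure D2:**
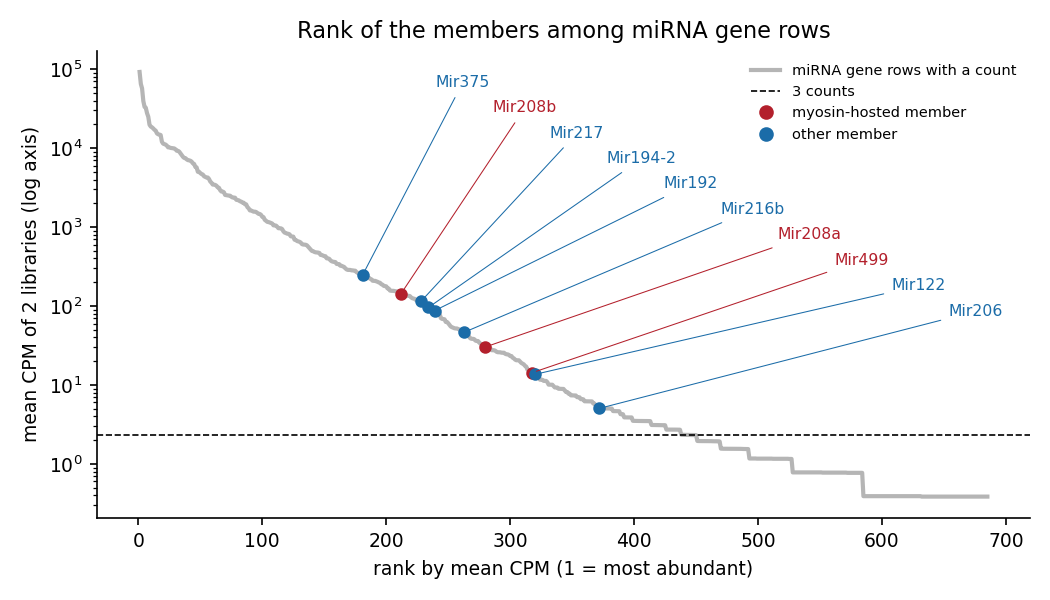
Mean CPM (log axis) of the miRNA gene rows with a count against their rank, with the 3 myosin-hosted members in red and the 7 others in blue. The members lie between rank 181 and rank 372, above the dashed line of 3 counts.

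Among the myosin-hosted genes, Mir208b was the most abundant in both libraries and Mir499 the least. Their sum was 246 CPM in replicate 1 (315 counts, exact Poisson interval 219 to 275) and 131 CPM in replicate 2 (170 counts, 112 to 152), a mean of 188 ± 81.2 CPM (SD, n = 2). The intervals of the libraries do not overlap. Mir208b made up 77.8% and 73.5% of the sum.

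Mir208b (ENSMUSG00000077928), in intron 31 of the beta myosin heavy chain gene Myh7, lies at chr14:54975700-54975776 on the minus strand (mm10). It had 245 counts (191 CPM, 168 to 217) in replicate 1 and 125 counts (96.3 CPM, 80.2 to 115) in replicate 2, which is 81.7 and 41.7 times the counting limit. Replicate 1 was 1.99-fold higher, with a log2 ratio of 0.99 (exact interval 0.67 to 1.31). An exact binomial test between the libraries, adjusted over 398 genes with 10 or more counts in total, gave p = 1.47379e-09. The test compares these libraries, not conditions. Of the tested genes, 15 (3.77%), Mir208b included, had a log2 ratio at least this high.

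Mir208a (ENSMUSG00000065432), in intron 29 of the alpha myosin heavy chain gene Myh6, lies at chr14:54949060-54949142 on the minus strand. It starts 26640 bp from the start of Mir208b. Its 51 counts in replicate 1 were 39.8 CPM (29.6 to 52.3) and its 27 counts in replicate 2 were 20.8 CPM (13.7 to 30.3). It too was higher in replicate 1, 1.91-fold, with a log2 ratio of 0.92 (0.24 to 1.67, adjusted p = 0.0243 by the exact binomial test). With edgeR's exact test the log2 ratio was 0.86 and the adjusted p 0.881.

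Mir499 (ENSMUSG00000076312) lies in intron 19 of Myh7b, a slow-type myosin gene, at chr2:155622880-155622958 on the plus strand. It had 19 counts (14.8 CPM, 8.93 to 23.2) and 18 counts (13.9 CPM, 8.22 to 21.9), 6.33 and 6 times the limit. The libraries' intervals overlap, and the log2 ratio was 0.09 (-0.91 to 1.11, adjusted p = 0.966 by the exact binomial test). The interval runs from about 2-fold lower to 2-fold higher, so a smaller difference was not detectable at this depth.

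Within a library, the ratio of Mir208b to Mir208a was 4.80 in replicate 1 (exact interval 3.54 to 6.63) and 4.63 in replicate 2 (3.04 to 7.30). Both genes were thus lower in replicate 2 by nearly the same fold. Mir208b exceeded Mir499 12.9-fold (8.08 to 21.8) and 6.94-fold (4.22 to 12.1), and Mir208a exceeded Mir499 2.68-fold (1.56 to 4.81) and 1.5-fold (0.796 to 2.89). The intervals of the libraries overlap for both pairs, and in replicate 2 the interval of Mir208a to Mir499 includes a ratio of 1.

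Other miRNA genes of striated muscle were at or near 0 counts. Mir1b had 5 counts in each library (3.90 and 3.85 CPM, log2 ratio 0.02), and it was the only other gene of this list that could be tested, with 0 higher and 0 lower. Mir133b, both Mir133a genes (Mir133a-1 and Mir133a-2) and Mir1a-1 had no count. Each of these 4 shares 20 or more bases with the hairpin of another gene (21 bases for Mir133b, up to 31 for the Mir133a genes). Reads of their shared arms may therefore be missing from these counts, and their 0 sets no limit for those arms. Whether forebrain held the miRNAs of the shared arms was therefore not measured. Mir1a-2, on the strand opposite Mir1b, had no row.

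Mir206 (ENSMUSG00000065559), the skeletal muscle member, lies at chr1:20679010-20679082 on the plus strand, in an exon of the long noncoding RNA Gm28653. It had 9 counts (7.02 CPM, 3.21 to 13.3) in replicate 1 and 4 counts (3.08 CPM, 0.840 to 7.89) in replicate 2. It was the least abundant member in both libraries, at 3 and 1.33 times the limit. The log2 ratio was 1.10 (-0.65 to 3.34, adjusted p = 0.356 by the exact binomial test), so the libraries did not differ beyond counting error. Mir133b, in the same noncoding RNA 3759 bp away, had no count.

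The 7 members outside myosin genes summed to 678 CPM in replicate 1 (869 counts, 634 to 725) and 544 CPM in replicate 2 (706 counts, 505 to 586), a mean of 611 ± 94.9 CPM (SD, n = 2). Mir375 alone made up 40.7% and 40.5% of this sum. The ratio of the myosin-hosted sum to this sum was 0.362 in replicate 1 (exact interval 0.318 to 0.413) and 0.241 in replicate 2 (0.202 to 0.285), and these intervals do not overlap. Without Mir208b the ratio was 0.0806 (0.0622 to 0.103) and 0.0637 (0.0461 to 0.0862), and the intervals overlap.

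**Figure D3:**
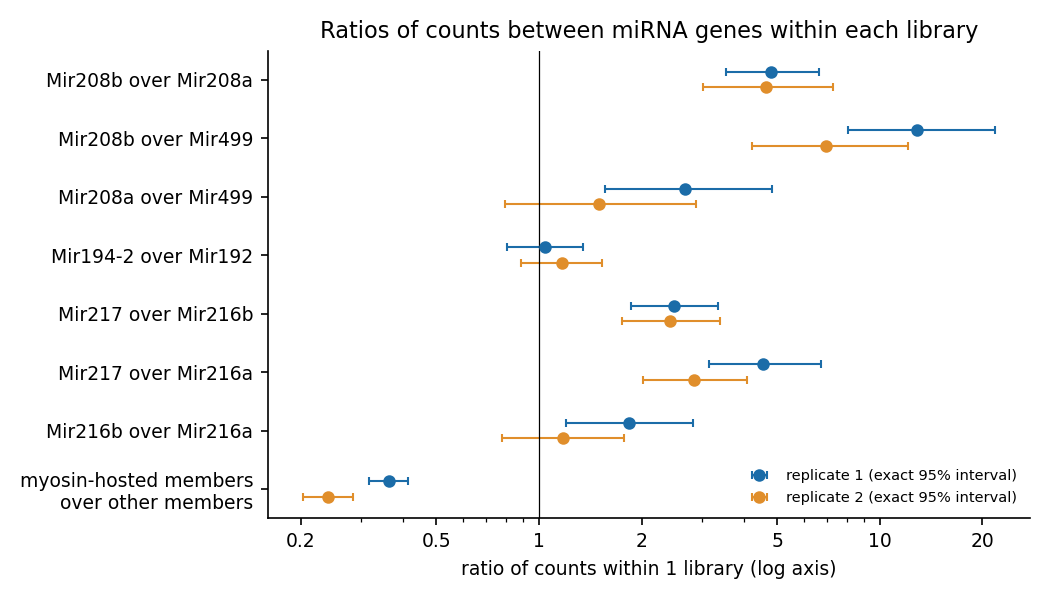
Ratios of counts between miRNA genes, and of the myosin-hosted to the other members, within replicate 1 (blue) and replicate 2 (orange), on a log axis with exact 95% intervals and a line at 1. The libraries' intervals overlap for the 7 pairs of genes and separate for the sums at the bottom (0.362 and 0.241).

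Mir192 (ENSMUSG00000065523) and Mir194-2 (ENSMUSG00000065582) lie side by side, outside any host gene of the annotation, at chr19:6264844-6264932 and chr19:6264643-6264728 on the plus strand. Mir192 had 122 counts (95.2 CPM) and 103 counts (79.4 CPM), and Mir194-2 had 127 counts (99.1 CPM) and 120 counts (92.5 CPM). These neighbours did not differ beyond counting error: the ratio of Mir194-2 to Mir192 was 1.04 (0.806 to 1.35) in replicate 1 and 1.17 (0.888 to 1.53) in replicate 2. Neither passed the test between the libraries (log2 ratios of 0.26 and 0.10, adjusted p = 0.363 and 0.805 by the exact binomial test).

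Their near copies were below the counting limit. Mir215, which has the seed of Mir192, had 1 count in each library, and Mir194-1 had 2 in each. Mir194-2 thus exceeded Mir194-1 63.5-fold (17.2 to 530) and 60-fold (16.3 to 501). A read of miR-194-5p alone fits both Mir194 genes, and reads that fit several places are in no gene's count, so the levels of both genes are uncertain.

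In the gut and liver list, the 2 other genes with 3 or more counts were more abundant than any member. Mir148a had 626 and 599 counts (489 and 462 CPM) and Mir31 had 381 and 369 counts (297 and 284 CPM). Their log2 ratios were 0.08 and 0.06, and of the 2 tested, 0 were higher and 0 lower. Mir802, a liver and pancreas miRNA, had 1 count in replicate 1 and 0 in replicate 2.

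The pancreas members Mir216b and Mir217 share a cluster with Mir216a. Mir217 (ENSMUSG00000065415), at chr11:28763728-28763835 on the plus strand in an intron of the noncoding RNA Gm12082, had 164 counts (128 CPM, 109 to 149) and 131 counts (101 CPM, 84.4 to 120). Mir216b (ENSMUSG00000076318), at chr11:28746191-28746276 on the same strand, had 66 counts (51.5 CPM, 39.8 to 65.5) and 54 counts (41.6 CPM, 31.3 to 54.3). Both were slightly higher in replicate 1, with log2 ratios of 0.34 and 0.31, and neither passed the test (adjusted p = 0.134 and 0.492 by the exact binomial test). Mir216a, which lies between them, 6716 bp from Mir217, had 36 and 46 counts (28.1 and 35.4 CPM, log2 ratio -0.33, adjusted p = 0.561).

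Mir217 was the most abundant gene of the cluster in both libraries. Its ratio to Mir216b was 2.48 (1.86 to 3.36) and 2.43 (1.75 to 3.40), and its ratio to Mir216a was 4.56 (3.16 to 6.73) and 2.85 (2.02 to 4.08). Mir216b exceeded Mir216a 1.83-fold (1.20 to 2.83) in replicate 1, while in replicate 2 the ratio of 1.17 (0.777 to 1.78) did not separate them.

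Mir375 (ENSMUSG00000065616) lies outside any host gene at chr1:74900658-74900721 on the minus strand. It was the most abundant member in both libraries, with 354 counts (276 CPM, 248 to 307) and 286 counts (220.4 CPM, 196 to 247). Replicate 1 was 1.25-fold higher, with a log2 ratio of 0.33 (0.10 to 0.56) and an adjusted p of 0.0181 by the exact binomial test. The adjusted p was 0.0897 with scaling by the trimmed mean of M-values (TMM) and 0.0560 with DESeq2 size factors.

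The other pancreas genes with counts were the Mir7 genes, which the islets share with brain. Mir7b had 806 and 873 counts (629 and 673 CPM), Mir7-1 had 513 and 509 counts, and Mir7-2 had 286 and 236 counts. Reads that fit several Mir7 genes are in no gene's count, so the order of these genes is uncertain. Of the 4 tested genes of this list, Mir216a included, 0 were higher and 0 lower.

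Mir122 (ENSMUSG00000065402), the hepatocyte member, lies on mouse chromosome 18 in an exon of the noncoding RNA AC157910.3. It had 27 counts (21.1 CPM, 13.9 to 30.7) in replicate 1 and 8 counts (6.17 CPM, 2.66 to 12.1) in replicate 2, which is 9 and 2.67 times the limit. The intervals do not overlap. Replicate 1 was 3.42-fold higher, with a log2 ratio of 1.71 (0.60 to 3.12, adjusted p = 0.00524 by the exact binomial test). With edgeR's exact test the log2 ratio was 1.69 and the adjusted p 0.158. Of the tested genes, 2 (0.503%), Mir122 included, had a log2 ratio at least this high. The ratio of Mir375 to Mir122 was 13.1 (8.86 to 20.2) in replicate 1 and 35.8 (17.9 to 83.6) in replicate 2.

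All 10 members passed the minimum of 10 counts and all 10 were higher in replicate 1, as were 64.3% of the 398 tested genes. With TMM and with DESeq2 size factors the members' log2 ratios also stayed above 0 in 10 of 10, against 48.7% and 52.8% of tested genes. At an adjusted p under 0.05 with no minimum fold, 4 members were called (Mir208a, Mir208b, Mir122 and Mir375), all higher in replicate 1, against 28.4% of tested genes called and 20.6% called higher. With the minimum of 2-fold used for calls here, 1 member was called, Mir122, against 2.76% of tested genes, and 2.26% called higher. Over all genes called without a minimum fold, 72.6% were higher in replicate 1, against 49.1% with TMM and 55.5% with DESeq2 size factors.

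The median log2 ratio was 0.92 over the myosin-hosted members, 0.33 over the other 7, and 0.07 over all tested genes. Within the myosin-hosted group, Mir208a and Mir208b were at 0.92 and 0.99, but Mir499 was at 0.09. The highest ratios of any members, of Mir122 (1.71) and Mir206 (1.10), were among the other 7. The myosin-hosted sum was 1.88-fold higher in replicate 1 and the sum of the others 1.25-fold higher. EdgeR's exact test used a dispersion estimated from both libraries as 1 group (10.3% coefficient of biological variation). The differences tested are thus part of that dispersion, whereas the binomial test allows for counting error only. With the 2-fold minimum it called 6 of the 398 tested genes and 0 members. It gave 21 of the 398 an unadjusted p under 0.05, of which 3 were members. Without the fold minimum it called 8 of the 398, and Mir208b was the only member among them (log2 ratio 0.92, adjusted p = 0.0252).

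**Figure D4:**
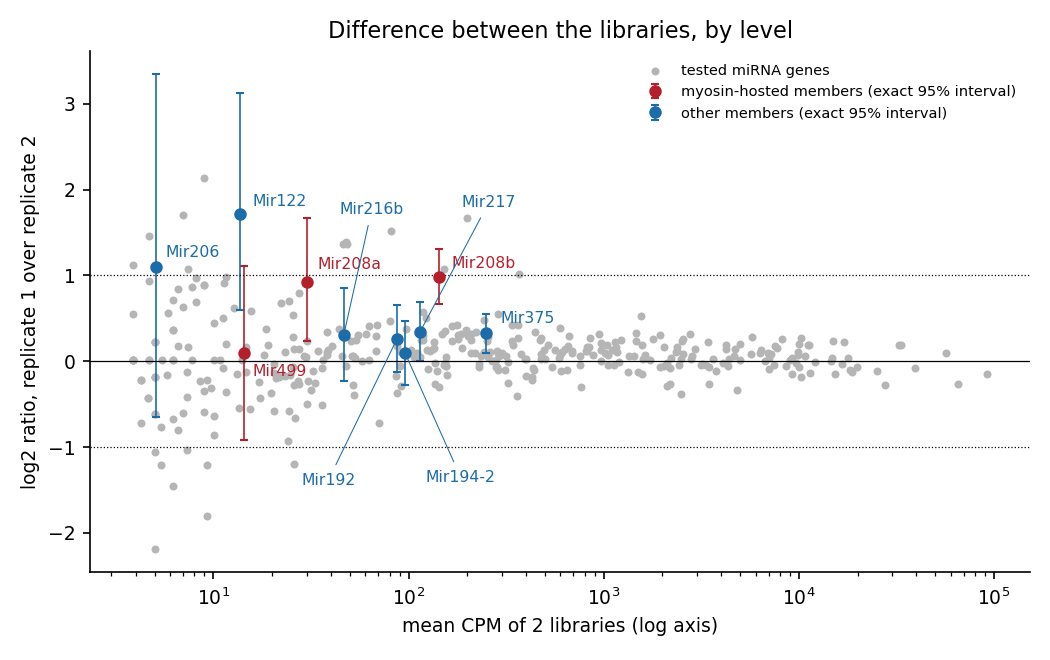
Log2 ratio of replicate 1 to replicate 2 against mean CPM (log axis) for the tested genes (grey), the myosin-hosted members (red) and the others (blue), with exact 95% intervals and dotted lines at 2-fold. All 10 members lie above 0, and Mir208b and Mir208a sit near the upper 2-fold line.

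Some markers of other cells passed the test between the libraries, at an adjusted p under 0.05 with no minimum fold, and others did not. The erythroid list summed to 606 and 371 CPM, and its leading gene Mir451a had 632 and 317 counts (493 and 244 CPM, log2 ratio 1.01, adjusted p = 1.9227e-24 by the exact binomial test). Mir144, made from the same transcript as Mir451a, had 113 and 119 counts (88.2 and 91.7 CPM), and Mir486a had 32 and 46 counts (log2 ratio -0.50). Over these 3 genes, 1 was higher in replicate 1, and the median log2 ratio was -0.06. The list of miRNA genes in Hox clusters, which are expressed behind the forebrain, summed to 210 and 84.0 CPM, led by Mir10a (120.2 and 41.6 CPM) and Mir10b (66.3 and 25.4 CPM). Mir196a-1 of the same list had no count. Leukocyte genes summed to 788 and 804 CPM, and 0 of 4 passed the test. Sums were 34601 and 30323 CPM for the endothelial gene, 23993 and 21693 CPM for mesenchyme and 8297 and 7756 CPM for epithelia. Of the 8 mesenchyme genes, 5 passed the test as higher in replicate 1 and 1 as lower, and of the 7 epithelial genes 1 and 1. The endothelial gene passed as higher. Among the 17 tested neural genes, 6 passed as higher and 1 as lower. Over all tested genes, 28.4% passed and 20.6% passed as higher. The part of these cells in the members' differences was not tested.

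In order of mean level, the members ran Mir375, Mir208b, Mir217, Mir194-2, Mir192, Mir216b, Mir208a, Mir499, Mir122 and Mir206. The values of the libraries overlapped between neighbours for Mir208b and Mir217, Mir194-2 and Mir192, Mir499 and Mir122, and Mir122 and Mir206, so these 4 pairs did not differ beyond the spread of the libraries. Mir208b and Mir217, and Mir499 and Mir122, changed order between the libraries, while Mir194-2 was above Mir192 and Mir122 above Mir206 in both. The other neighbours did not overlap. These ranges rest on the values of 2 libraries and do not cover counting error. In replicate 2 the Poisson intervals of Mir217 (84.4 to 120 CPM) and Mir194-2 (76.7 to 111 CPM) overlap. In replicate 1 those of Mir208b (168 to 217 CPM) and Mir217 (109 to 149 CPM) do not.

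By distance in log2(CPM + 1) over both libraries, the gene nearest to Mir208b was Gm23935, with 263 and 126 counts (log2 ratio 1.08), followed by Mir3099 and Mir145a. Nearest to Mir375 were Mir673, Mir539 and Mir5099, and nearest to Mir122 were Mir218-1 (20 and 10 counts), Mir1264 and Mir3078. This likeness rests on 2 libraries and covers level and ratio alone.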

How the data were processed

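The 2 small RNA libraries of 1 group were analysed. Each file holds 3 count columns, deposited by the authors: whole-number counts per miRNA gene without strand, on the sense strand and on the opposite strand. The submitters' notes name mm10 and the file's companion text GENCODE M4. Which aligner and counting program made them is not given in the sources used. The sense counts are 96.4% and 96.8% of the counts without strand. The 4 leading rows that name no gene (66.4% and 60.9% of reads) were left out of library totals and tests. IDs were matched to GENCODE M21 on GRCm38, the same build, for 1894 of 1973 rows.

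CPM used the sense total of a library. Intervals were exact Poisson for levels, Clopper-Pearson for ratios and Wilson for shares, at 95%. The counting limit was 3 counts. With 1 group no test between groups exists, so libraries were compared by a two-sided exact binomial test with Benjamini-Hochberg adjustment over 398 genes with 10 or more counts in total. A call needed an adjusted p under 0.05 and 2-fold. Log2 ratios had 0.5 counts added, and folds were plain ratios of CPM. Tools were Python 3.11.15, scipy 1.17.1, R 4.3.3, edgeR 4.0.16 and DESeq2 1.42.0, and scripts were tested on simulated data. Named genes were the members, every gene with 3 or more counts in the muscle, gut and liver, and pancreas lists, at most 2 of each other list (Mir486a and Mir196a-1 were added after their values were seen), genes within 10 kb (10000 bp), and the 3 nearest genes for Mir208b, Mir375 and Mir122. The members and lists were chosen with earlier results of these data known. Alternatives changed the scaling, filter, strand column, added counts, denominator and members.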

Additional observations from a re-analysis of the deposited data

How the results depend on the processing

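The number of members called different between the libraries was 1 by the exact binomial test and 0 by edgeR's exact test. The first allows for counting error only, and the second took its dispersion from the libraries it compared. Without the fold minimum the binomial test called 4 members, and 3 with TMM and 3 with DESeq2 size factors. Of all 398 tested genes, 11 were called by the exact binomial test and 6 by edgeR's. Without the fold minimum the binomial test called 113 of the 398, and 106 with TMM and 110 with DESeq2 size factors. Over all mapped reads the myosin-hosted sum was 89.5 CPM and that of the others 293 CPM, and without the 10 most abundant genes in the total they were 318 and 1036 CPM. Without Mir194-2 the others summed to 515 CPM. The log2 ratio of myosin-hosted to other members was -1.76, and without Mir208b, an alternative chosen after seeing the data, -3.80. Of 79 alternatives for single members' log2 ratios, 0 reversed, and in 5 the adjusted p rose above 0.05: Mir208a (0.881, log2 ratio 0.86) and Mir122 (0.158, log2 ratio 1.69) with edgeR, and Mir375 with TMM, DESeq2 size factors and edgeR. No paired analysis was possible because there is 1 group, and leaving out a replicate leaves no comparison between libraries. Counts of 4 to 27 a library limit Mir499, Mir206 and Mir122.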
